A study of Mus musculus with 4 samples.

Results

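Oligodendrocyte progenitor cells (OPCs) were taken from 4 single-cell libraries of the mouse brain after stroke. Of 59429 cells in the matrices, 54754 were kept, in which 200 to 6000 genes were detected and mitochondrial genes took no more than 10% of the UMIs (unique molecular identifiers, each counting 1 captured RNA molecule). A kept cell was called an OPC when it held a UMI of at least 3 of Pdgfra, Tnr, C1ql1, Matn4, Cspg4 and Olig1, of at most 1 of the mature oligodendrocyte genes Mog, Mag, Ermn and Opalin, and of at most 1 of Dcn, Col1a1, Col1a2, Lum and Kcnj8, which mark fibroblasts and pericytes. The 542 cells were thus selected on their measured UMIs of these genes, so the 15 rule genes describe the cells and are no finding. The sham library held 131 OPCs, the day 1 library 293, the day 3 library 42 and the day 7 library 76, so that day 3 rests on the fewest cells.

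The libraries came from the ipsilateral cerebral hemisphere of male C57/BL6 mice, 8 weeks old, after a sham operation or on day 1, 3 or 7 after transient middle cerebral artery occlusion (tMCAO), a filament model of ischemia and reperfusion. The series' design text places the sham mice at day 7. The tissue was digested with papain, myelin was removed on a Percoll gradient, and the cells were captured with the 10x Genomics droplet method. Each group was 1 library, and the sources used here do not say how many mice went into it. Differences between groups therefore had no replicate check, and no p-value was computed. The 95% intervals below are exact Poisson intervals for summed UMIs, exact binomial (Clopper-Pearson) intervals for shares and exact conditional intervals for ratios, and they cover counting error only.

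OPCs are the dividing, process-bearing glia that give rise to myelinating oligodendrocytes. They are kept in the progenitor state by platelet-derived growth factor and by Notch signalling through Hes5, and they leave it through a committed stage marked by Gpr17, Bcas1 and Enpp6 before the myelin genes are switched on. After ischemia they are known for dividing around the lesion and for replacing lost oligodendrocytes.

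Library totals ran from 69392755 to 104023002 UMIs, and the OPCs of a library held 370243 to 1509912 of them. The median OPC held 7564 UMIs in the sham library, 3444 at day 1, 6856 at day 3 and 5519 at day 7, so the day 1 cells were the shallowest. Between 33 and 88 barcodes were shared by each pair of libraries, and none of these was shared between OPCs of 2 libraries. Many OPC droplets also held RNA of another cell type. A droplet was called mixed when it held at least 3 of the 6 markers of another class, and this met 43 sham OPCs, 81 at day 1, 17 at day 3 and 29 at day 7. The mixed droplets held 45.6%, 51.4%, 57.3% and 57.5% of the OPC UMIs in the same order. Endothelial markers were the most frequent of these classes, with 25, 45, 9 and 19 droplets. The 6 endothelial markers together reached 2409.9, 1997, 2752 and 2115 CPM (UMIs of a gene scaled to 1e+06 UMIs of the summed cells) and dropped to 125, 116, 152 and 147 CPM without the mixed droplets, where at most 2 of the 6 were at 0 in a library. The 6 choroid plexus markers stood at 20664, 45433, 12611 and 69121 CPM and at 877, 1788, 1214 and 508 CPM without those droplets. Many results are therefore given with and without the mixed droplets, and a value without that mention covers all OPCs. The part of these droplets in a result was not tested otherwise.

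The rule genes and further OPC genes were at high levels in the chosen cells. Olig1, a transcription factor of the lineage, reached 2329, 1686, 1583 and 1663 CPM, and Pdgfra, the receptor for platelet-derived growth factor, 939, 832, 440.3 and 1016 CPM. C1ql1, a secreted ligand of the C1q family, was most abundant in sham OPCs, at 1502 CPM, with 617, 735 and 672 CPM on days 1, 3 and 7. All 6 markers were present in 79.4% of the sham OPCs, 48.8% at day 1, 45.2% at day 3 and 69.7% at day 7. The 24 OPC genes that the rule did not use, summed, show what lies at its threshold. Cells with 3 markers, just inside, held 531, 2398, 2369 and 755 CPM of that list, against 617, 784, 949 and 706 CPM in cells with 2 markers, just outside, and 19415, 14164, 18768 and 18214 CPM in cells with all 6. The cells with only 3 markers (5, 20, 9 and 7 of the OPCs) thus carried little of the OPC programme in the sham and day 7 libraries.

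The genes that set OPCs apart from all other kept cells in every library were chosen as the 12 with the highest lowest-of-4 ratio. They were Cspg5, Lhfpl3, Ptprz1, Neu4, Bcan, Gpr17, Cacng4, Vcan, Scrg1, Fabp7, Cdo1 and Pcdh15. Cspg5, Ptprz1, Bcan and Vcan encode chondroitin sulfate proteoglycans. Cspg5 led with 3773, 1944, 1869 and 1963 CPM, against 20.8, 36, 24 and 9.89 CPM in the other cells. Astrocytes were taken as cells with at least 3 of 6 astrocyte markers and fewer than 3 OPC markers. They also held at most 1 of the mature oligodendrocyte genes and at most 1 of Cldn5, Flt1, Pecam1 and Cdh5. They were closer to the OPCs for some of the 12 genes, with 202, 147, 829 and 154 CPM of Cspg5 and 431, 174, 696 and 265 CPM of Bcan. They had no UMI of Neu4 or Gpr17, but as they were chosen against OPC markers, this is no independent contrast. These cells also carried 4988 to 8689 CPM of ependymal markers. In the OPCs Cspg5 was higher in the sham library than on any day after tMCAO, with ratios of 0.515 (0.491 to 0.54), 0.495 (0.456 to 0.537) and 0.52 (0.487 to 0.555).

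**Figure D1:**
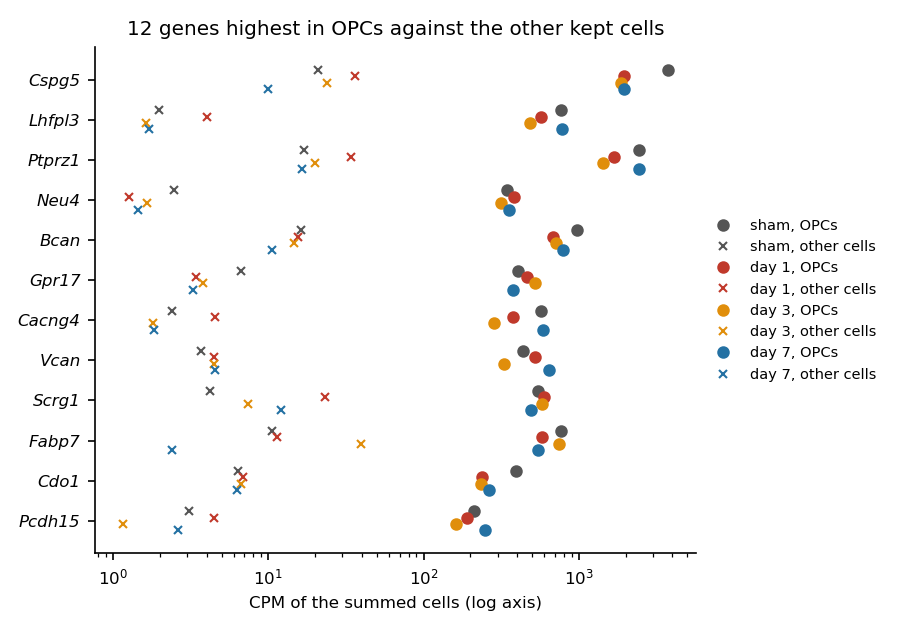
Level of the 12 genes in the summed OPCs (circles) and in the summed other kept cells (crosses) of each library, in CPM on a log axis, coloured by group. In every library and for every gene the circles lie to the right of the crosses, and the Cspg5 circle of the sham library, at 3773 CPM, stands right of the other 3.

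OPCs took up a smaller share of the cells on days 3 and 7. They made up 1.29% of the kept sham cells (1.08 to 1.52), 1.75% at day 1 (1.56 to 1.96), 0.372% at day 3 (0.268 to 0.502) and 0.459% at day 7 (0.362 to 0.574). The intervals of days 3 and 7 lay below those of the sham and day 1 libraries. Without the mixed droplets the shares were 0.863% (0.693 to 1.06), 1.27% (1.1 to 1.45), 0.221% (0.143 to 0.326) and 0.284% (0.209 to 0.377), in the same order of groups, and with cells of up to 3000 genes only they were 0.489%, 1.78%, 0.192% and 0.292%. More than 3000 genes were detected in 94 of the 131 sham OPCs and in 55 of the 293 of day 1, so this limit took the sham share further below that of day 1. With all 6 markers required the shares were 1.02%, 0.856%, 0.168% and 0.32%, and the sham share was then above that of day 1 with overlapping intervals. Mature oligodendrocytes, taken as cells with at least 3 of Mog, Mag, Ermn and Opalin, were 15.1%, 18.1%, 11.6% and 12.3% of the kept cells. For every 100 of them there were 8.49, 9.71, 3.2 and 3.73 OPCs. A share depends on which other cells were captured, so fewer OPCs in the tissue and fewer recovered from it cannot be told apart.

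**Figure D2:**
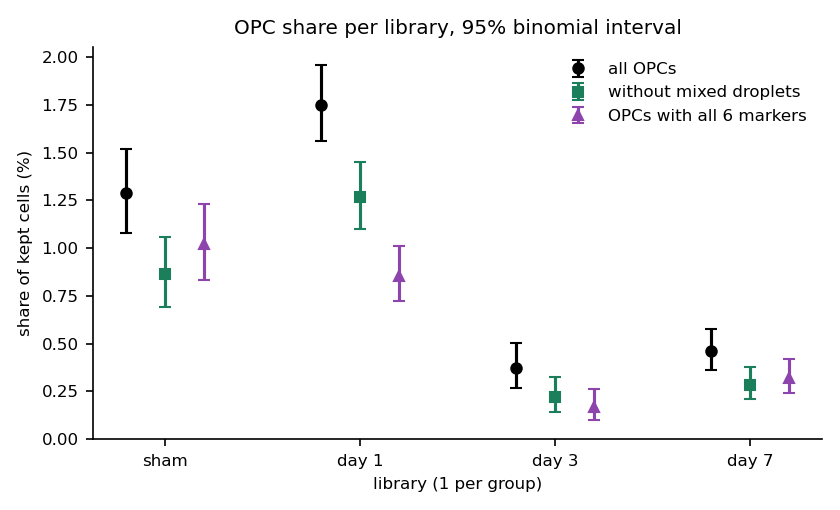
Share of kept cells called OPCs in each library (vertical axis, percent) with its 95% binomial interval, for all OPCs, without mixed droplets and for OPCs with all 6 markers. All 3 definitions put days 3 and 7 below the sham and day 1 libraries.

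The expression of the OPCs at each day was then compared with that of the sham OPCs. The UMIs of all OPCs of a library were summed, and a gene was measured when it reached 50 CPM in either library and 20 UMIs in both together. Ratios are given as measured, and log2 ratios with 10 CPM added to each level. At day 1, 83 of 4376 measured genes (1.90%) were at least 2-fold higher and 118 (2.70%) at least 2-fold lower than in sham OPCs. At day 3 the counts were 168 (3.73%) and 192 (4.26%) of 4508, and at day 7 they were 155 (3.31%) and 130 (2.77%) of 4687. The median log2 ratio of all measured genes was -0.13, -0.08 and -0.09. Higher genes made up 41.3%, 46.7% and 54.4% of those past 2-fold. Centred on the median they made up 60.4%, 58.5% and 68.0%, and at day 7 they made up 69.5% with equal weight per cell and 64.6% with Ttr left out of the totals.

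Without mixed droplets 70 genes were higher and 92 lower at day 1, 173 and 302 at day 3 and 208 and 158 at day 7, in part other genes. Of the genes past 2-fold, 81 higher and 103 lower at day 1, 122 and 183 at day 3 and 135 and 116 at day 7 were also past it without that OPC, and 44 and 65, 52 and 116, and 45 and 69 without the mixed droplets. In all, 44 higher and 65 lower at day 1, 44 and 116 at day 3 and 41 and 66 at day 7 were also past it both without the mixed droplets and without the OPC with most UMIs of the gene. Of the higher genes these were 26.2% at day 3 and 26.5% at day 7. Several of the 8 genes furthest above sham on a day were much lower without the mixed droplets. Spp1, a secreted phosphoprotein, had no UMI in sham OPCs and stood at 268 CPM at day 1, where 1 of 15 positive cells held 65.4% of its UMIs, and it was at 12.3 CPM without mixed droplets, where its log2 ratio was 1.15 against 4.80 in all OPCs. Lcn2, an acute-phase lipocalin, reached 2717 CPM at day 3 in 8 of 42 OPCs, against 1405 CPM in all other cells, and 12.6 CPM without mixed droplets, with a log2 ratio of 1.18 against 8.09. Both genes, and Ifitm1 (1.53 against 6.53 at day 3), thus stayed past 2-fold from few UMIs. Gfap, the astrocyte filament gene, reached 429 CPM there in 4 cells, of which 1 held 72.3%. Gfap at day 3, the vascular genes Ackr1 and Lrg1 and the genes Ptgs2, Apod and Crym did not stay past 2-fold there, and the day 7 list held choroid plexus genes such as Folr1, Prlr and Kcnj13, which were at 0 CPM without mixed droplets at day 7. Among the largest differences below sham, 1 sham droplet held all UMIs of Pf4, 97.6% of Olfr655 and 98.2% of Ccl7.

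Genes of glial injury and the acute phase were higher than in sham OPCs at days 1 and 3, also without the mixed droplets. Of 19 measured genes of that list, 11 were at least 2-fold higher at day 1, against 1.90% of all measured genes, with a median log2 ratio of 1.48, and the median was 1.48 in mature oligodendrocytes and 1.19 in all other cells. At day 3, 11 of 19 were higher, against 3.73%, with a median of 1.21. At day 7 only C4b of 14 was on this scale, against 3.31% of all measured genes. Without mixed droplets 12 genes were higher at day 1 (median 1.38), 6 at day 3 (0.74) and 1 at day 7 (0.12). Of all genes measured then, 1.53%, 3.58% and 4.15% were higher on these days. Socs3, a feedback inhibitor of cytokine signalling, was the one gene of the list 2-fold lower at day 1, at 131 against 277 CPM. Without mixed droplets no measured gene of the list was 2-fold lower at day 1. Some markers of other cells differed between the OPC groups as well. The 6 microglia and macrophage markers summed to 93.1, 239, 27 and 16.5 CPM, and to 8.31, 40.8, 19 and 11.6 CPM without mixed droplets, a day 1 ratio of 4.92 (1.89 to 16.2) with none of the 6 at 0 at day 1 and 4 at 0 in sham. The 6 astrocyte markers summed to 291, 372, 751 and 329 CPM, and to 356, 374, 145 and 407 CPM without mixed droplets. The 6 ependymal markers summed to 36.1, 314, 143 and 159.7 CPM, and to 9.97, 16.3, 12.6 and 0 CPM without mixed droplets. The part of these markers in the injury list was not tested.

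Serpina3n encodes a secreted serine protease inhibitor that glia make after injury, and lies at chr12:104406729-104414329 in the GENCODE annotation of GRCm38. It stood at 21.7 CPM in sham OPCs, 769 CPM at day 1, 278 CPM at day 3 and 32.9 CPM at day 7. It had a UMI in 22 of 131, 120 of 293, 14 of 42 and 10 of 76 OPCs. The ratio to sham was 35.5 (23.7 to 55.6) at day 1, 12.8 (8.16 to 20.9) at day 3 and 1.52 (0.796 to 2.87) at day 7, and 34.5, 12.4 and 0.737 without mixed droplets. At 2000 UMIs per cell, 8.2% of sham OPCs, 34% at day 1, 23.7% at day 3 and 6.15% at day 7 were positive. Mature oligodendrocytes were positive in 0.465%, 27.6%, 7.1% and 2.67% at that depth.

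C4b, complement component 4, was highest at day 3. Its levels were 8.13, 189, 273 and 54.3 CPM, in 9, 128, 21 and 13 OPCs. The ratios to sham were 23.3 (12.1 to 51.5), 33.5 (17 to 75.5) and 6.68 (3.13 to 15.9), and C4b was the one gene of the list with a log2 ratio of at least 1 at day 7 with 10 CPM added, Mt2 being at 0.89. Without mixed droplets the levels were 4.99, 274, 531 and 34.9 CPM. In OPCs with a Serpina3n UMI at 2000 UMIs, C4b was 3.28 times as abundant per cell as in the others at day 1 (2.18 to 5.01) and 12.2 times at day 3 (4.42 to 42), the latter from 9 and 29 cells. Both genes thus lay in part in the same OPCs, at equal depth.

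S100a6, a calcium-binding protein, was at 230.4, 1044, 929 and 341 CPM, 1 OPC holding 48% of its day 3 UMIs, with ratios of 4.53 (3.97 to 5.19), 4.03 (3.42 to 4.76) and 1.48 (1.23 to 1.78). Lgals1, the lectin galectin-1, was at 51.5, 303, 91.8 and 98.8 CPM, and at 6.65, 166, 19 and 3.88 CPM without mixed droplets, so that only day 1 stood out. Gpnmb, a membrane glycoprotein of phagocytic and glial cells, was at 1.81 CPM in sham (2 UMI-positive cells), 51 CPM at day 1 (30 cells), 32.4 CPM at day 3 and 21.4 CPM at day 7. In mature oligodendrocytes Gpnmb did not exceed 0.914 CPM in any library, and in all other cells it was at 3.53 CPM at day 1 and 20.8 CPM at day 7. Gadd45g, a stress-response gene singled out after its values were seen, was at 118, 363, 370.0 and 119 CPM, and S100a10 at 36.1, 166, 70.2 and 39.5 CPM.

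The metallothioneins Mt1 and Mt2, small proteins that bind zinc and copper, belong to the same list and are neighbours on chromosome 8. Their promoters (RefSeq, GRCm38.p6, 250 bases before to 50 after the gene start, plus strand) are shown because both genes were higher on the same days. Capitals mark matches to the metal response element, searched as TGCACNC or TGCGCNC on both strands. This motif was found in 25.7% of 32851 promoters of that length, and in 3 of the 16 injury list genes with a promoter in the table, which were Mt1, Mt2 and Mt3. The Mt1 window spans chr8:94178839-94179138 and Mt2 chr8:94172368-94172667.
Mt1: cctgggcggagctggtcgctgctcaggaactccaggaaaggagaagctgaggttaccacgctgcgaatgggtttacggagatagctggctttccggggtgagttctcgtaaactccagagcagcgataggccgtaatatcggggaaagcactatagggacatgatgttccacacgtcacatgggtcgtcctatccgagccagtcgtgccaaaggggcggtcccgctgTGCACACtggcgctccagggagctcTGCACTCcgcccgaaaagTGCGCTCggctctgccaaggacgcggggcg
Mt2: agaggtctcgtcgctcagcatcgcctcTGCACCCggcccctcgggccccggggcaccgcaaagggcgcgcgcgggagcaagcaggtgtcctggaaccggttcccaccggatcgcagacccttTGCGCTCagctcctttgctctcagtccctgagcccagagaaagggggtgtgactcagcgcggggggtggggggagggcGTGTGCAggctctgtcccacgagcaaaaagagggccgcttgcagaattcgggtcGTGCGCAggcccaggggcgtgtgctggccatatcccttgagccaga

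Mt1 stood at 491, 1621, 1361 and 484 CPM, a ratio of 3.3 (3.01 to 3.63) at day 1, 2.77 (2.45 to 3.14) at day 3 and 0.987 (0.853 to 1.14) at day 7. Mt2 stood at 47, 213, 203 and 95.5 CPM, a ratio of 4.54 (3.38 to 6.21), 4.31 (2.99 to 6.26) and 2.03 (1.37 to 3.01). Both were 2-fold or more above sham at days 1 and 3. Without mixed droplets the ratios were 2.66, 1.69 and 1.04 for Mt1 and 3.6, 1.78 and 1.01 for Mt2, so that day 1 alone remained past 2-fold. Mt3, the brain form, had a ratio of 2.33 at day 3 that turned to 0.668 (0.522 to 0.845) without mixed droplets. Mt1 was also higher at day 1 in mature oligodendrocytes, at 2839 against 1135 CPM.

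**Figure D3:**
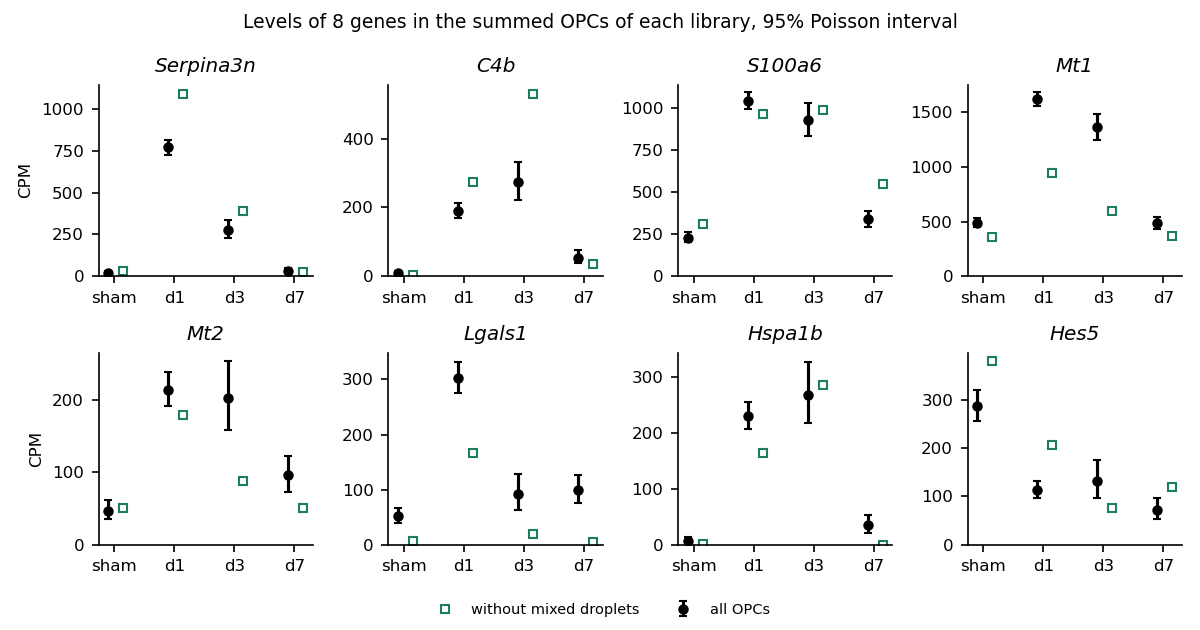
Level of 8 genes in the summed OPCs of each library, by group (vertical axes, CPM from 0), with 95% Poisson intervals. Black circles are all OPCs and green squares leave out mixed droplets. Serpina3n and S100a6 are highest at day 1 among all OPCs, C4b at day 3, and Hes5 is highest in the sham library.

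Counted per cell at 2000 UMIs, none of 122 sham OPCs held at least 3 of 10 injury genes (Serpina3n, Lcn2, Cd44, Klk6, C4b, Il33, Spp1, Gap43, Timp1 and Socs3), which allows a share of up to 2.46% (3 counts of the total). The share was 16% at day 1 (11.6 to 21.2), 18.4% at day 3 (7.74 to 34.3) and 6.15% at day 7 (1.7 to 15). In mature oligodendrocytes it was 0.332%, 22.9%, 10.9% and 2.67%. Unthinned, the OPC shares were 11.5%, 29.4%, 33.3% and 14.5%. Without mixed droplets, thinned, they were 0%, 14.9%, 23.8% and 0%, the last of 36 cells.

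Most measured interferon-stimulated genes were lower in OPCs after tMCAO than in sham OPCs. These genes are switched on by type I interferon through transcription factors that bind a response element in their promoters. The promoters of Ifit1, Ifit3 and Ifit3b, neighbours on chromosome 19 and all at least 2-fold lower on each day in all OPCs, are shown from RefSeq (GRCm38.p6, plus strand) with matches to the interferon-stimulated response element in capitals. It was searched on both strands as GAAA, any 2 bases and GAAA, which reads TTTC, any 2 bases and TTTC from the minus strand. The motif was in 3.44% of the 32851 promoters and in 6 of 10 interferon list genes with a promoter, namely Ifit1, Ifit3, Ifit3b, Isg15, Bst2 and Ifitm3. A match is a description of the letters only. The Ifit1 window is at chr19:34640639-34640938, Ifit3 at chr19:34583279-34583578 and Ifit3b at chr19:34607707-34608006.
Ifit1: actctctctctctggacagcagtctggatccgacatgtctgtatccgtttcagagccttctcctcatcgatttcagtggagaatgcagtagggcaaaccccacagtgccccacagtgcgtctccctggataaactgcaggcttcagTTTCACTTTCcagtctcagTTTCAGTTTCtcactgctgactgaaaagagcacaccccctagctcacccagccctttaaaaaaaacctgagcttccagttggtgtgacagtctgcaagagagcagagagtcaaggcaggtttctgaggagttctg
Ifit3: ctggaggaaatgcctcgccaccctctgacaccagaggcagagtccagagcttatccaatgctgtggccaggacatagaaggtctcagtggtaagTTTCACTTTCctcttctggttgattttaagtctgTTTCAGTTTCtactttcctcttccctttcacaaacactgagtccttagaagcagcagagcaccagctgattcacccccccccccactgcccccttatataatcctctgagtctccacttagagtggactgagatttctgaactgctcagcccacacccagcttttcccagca
Ifit3b: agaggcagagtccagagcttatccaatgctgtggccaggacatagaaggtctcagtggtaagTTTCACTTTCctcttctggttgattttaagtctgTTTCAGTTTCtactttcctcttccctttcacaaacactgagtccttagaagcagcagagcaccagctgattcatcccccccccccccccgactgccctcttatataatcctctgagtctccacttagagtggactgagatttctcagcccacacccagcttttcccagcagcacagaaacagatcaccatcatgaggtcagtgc

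Of 14 measured interferon-stimulated genes, 12 were at least 2-fold lower at day 1, against 2.70% of all measured genes, 9 at day 3, against 4.26%, and 10 at day 7, against 2.77%. The median log2 ratio was -1.83, -1.23 and -1.57. In mature oligodendrocytes it was -0.64, -0.06 and -0.65, and in all other kept cells -2.12, -1.07 and -1.29, so that lower levels were also measured outside the OPCs. Without mixed droplets 8, 3 and 9 of these genes were lower and 1, Ifitm3 at day 1, was higher. Of all genes measured then, 2.01%, 6.25% and 3.15% were lower. The medians of the list were then -1.11, -0.55 and -1.20. In all OPCs Ifitm3 was at least 2-fold higher at day 3. Summed, the 20 genes of the list stood there at 4259.6, 1583, 4170.2 and 1961 CPM. The day 3 ratio of the sum was 0.979 (0.924 to 1.04), and 0.735 (0.648 to 0.83) without mixed droplets. The 5 erythrocyte markers summed to 123, 14.6, 103 and 21.4 CPM, and to 143, 17.7, 69.6 and 31 CPM without mixed droplets. Their part in the interferon list was not tested.

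Ifit3, an interferon-induced antiviral gene, stood at 356 CPM in sham OPCs, 52.3 CPM at day 1, 129.6 CPM at day 3 and 56 CPM at day 7, with a UMI in 85, 36, 15 and 24 cells. Its ratio to sham was 0.147 (0.114 to 0.188), 0.364 (0.264 to 0.492) and 0.157 (0.107 to 0.224). Ifit3b stood at 142, 21.2, 43.2 and 14.8 CPM, and Ifit1 at 175, 41.7, 67.5 and 51.1 CPM. Without mixed droplets Ifit3 and Ifit1 missed 2-fold at day 3, at log2 ratios of -0.91 and -0.43, and Ifit3b did not. Ifit3 and Ifit3b are near-identical copies, so reads may have been split between them. Irf7, a transcription factor of the interferon response, was at 209, 25.2, 67.5 and 21.4 CPM. The day 1 log2 ratio of Irf7 was -2.64, and -1.20 without mixed droplets. Usp18, which dampens the interferon receptor, was at 74.1, 9.27, 24.3 and 14.8 CPM. Rtp4 was at 173, 34.4, 122 and 49.4 CPM. The sham level was the highest of the 4 for each of these genes, although at day 3 Irf7 lay above sham (log2 ratio of 0.92) when only cells of up to 3000 genes were kept. Isg15, a ubiquitin-like protein, was at 277, 47, 113 and 32.9 CPM, but at 18.3, 39.5, 19 and 15.5 CPM without mixed droplets. Its day 1 ratio was then 2.16 (1.05 to 4.79), so for Isg15 the direction rested on those droplets.

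**Figure D4:**
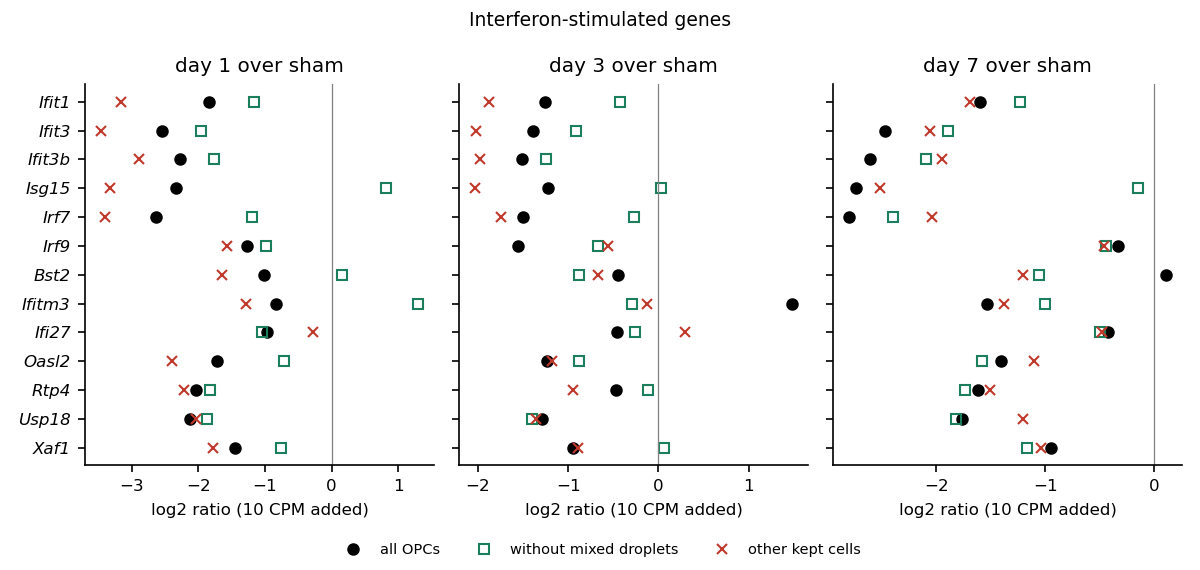
Log2 ratio to sham (horizontal axes, 10 CPM added) of interferon-stimulated genes at days 1, 3 and 7, for all OPCs (circles), OPCs without mixed droplets (squares) and all other kept cells (crosses). At day 1 all circles lie left of 0, while Isg15, Bst2 and Ifitm3 lie right of it without mixed droplets.

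Most OPC identity genes lay below sham at days 1 and 3, by less than 2-fold. Of the 24 that the rule did not use, 3 were at least 2-fold lower at day 1 and none higher, against 2.70% and 1.90% of all measured genes. At day 3, 3 were lower and 1 higher, against 4.26% and 3.73%, and at day 7, 2 were lower, against 2.77%. The medians were -0.56, -0.68 and 0.01, and -0.29, -0.52 and 0.23 without mixed droplets. Summed, the list stood at 16284, 10825, 10147 and 13066 CPM, and in cells with all 6 markers at 19415, 14164, 18768 and 18214 CPM, so that at day 3 the sum was near sham among those cells, which were 45.2% of the day 3 and 79.4% of the sham OPCs. Emid1, an extracellular matrix gene, was at 325, 113, 97.2 and 124 CPM, a ratio of 0.346 (0.287 to 0.417), 0.299 (0.206 to 0.422) and 0.38 (0.292 to 0.488). Ostf1 was at 513, 219, 227 and 201 CPM. Rlbp1, a retinaldehyde-binding protein, was at 209, 89.4, 119 and 140.0 CPM. Emid1 and Ostf1 were below sham by 2-fold on every day, and Rlbp1 only at day 1. Without mixed droplets Emid1 missed 2-fold at day 7, at a log2 ratio of -0.96. The lineage factors stayed within 2-fold or above it: Olig2 had ratios of 0.634, 0.691 and 0.728, Sox10 of 1.05, 0.729 and 0.823, and Nkx2-2, which promotes differentiation, was at 72.3, 103, 205 and 97.2 CPM, with a day 3 ratio of 2.84 (2.05 to 3.94).

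Hes5, the Notch target that holds OPCs back from differentiation, was lower on every day. It stood at 287 CPM in sham OPCs and at 113, 132 and 72.5 CPM on days 1, 3 and 7, with ratios of 0.394 (0.325 to 0.476), 0.461 (0.334 to 0.624) and 0.252 (0.18 to 0.346). Without mixed droplets they were 0.538, 0.199 and 0.315, so that day 1 then missed 2-fold. Of the 16, 18 and 17 inhibitors of differentiation measured on days 1, 3 and 7, Hes5 apart, Id1 and Klf4 were lower at day 1, Hes1, Lingo1 and Klf4 lower and Id4 and Sox9 higher at day 3, and Sox9 higher at day 7. Of all measured genes 2.70% were lower at day 1, 4.26% lower and 3.73% higher at day 3, and 3.31% higher at day 7. Without mixed droplets only Klf4 at day 1 of these stayed past 2-fold, and Sox9 at day 7 had a log2 ratio of -0.22. With cells of up to 3000 genes Sox9 at day 7 was at -0.79 and Klf4 at day 3 at 0.54. The list's median was -0.21, -0.18 and 0.26, near that of all measured genes on days 1 and 3.

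Genes of committed and newly formed oligodendrocytes were higher at day 3. Of 11 measured, 3 were at least 2-fold higher, against 3.73% of all measured genes, with a median log2 ratio of 0.72. Without mixed droplets 6 were higher, against 3.58% of all genes measured then, and the median was 1.09. In mature oligodendrocytes the median was -0.19. At day 1 none of 11 passed 2-fold (median -0.11), and at day 7 none of 12 (median 0.48). Of all measured genes, 1.90% were higher and 2.70% lower at day 1, and 3.31% and 2.77% at day 7. With so few genes measured, none past 2-fold is no contrast to day 3. Bcas1, expressed as oligodendrocytes begin to form myelin, was at 349, 383, 859 and 476 CPM, a day 3 ratio of 2.46 (2.12 to 2.86), and 3.59 (3.05 to 4.22) without mixed droplets. The latter rested on 25 day 3 and 88 sham OPCs. Fyn, a kinase of process outgrowth, was at 296, 316, 710.3 and 431 CPM, a day 3 ratio of 2.4 (2.03 to 2.83). Bmp4, a secreted ligand, was at 79.5, 52.3, 192 and 124 CPM, from 19, 28, 15 and 9 cells. The day 3 library had the highest level of all 3 genes. All 6 OPC markers were present in 45.2% of its OPCs and in 79.4% of the sham OPCs, and the part of this in the difference was not tested.

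Myelin genes in OPCs were limited from above by the rule, which admits at most 1 of 4 mature markers. Within that limit Cnp, a myelin enzyme, was at 459.9, 415, 991 and 423 CPM, with a day 3 ratio of 2.16 (1.88 to 2.47). In mature oligodendrocytes Cnp ran from 3727 to 5831 CPM. Mbp, a myelin protein, was at 298, 167, 140.4 and 208 CPM, 1 sham OPC holding 47.6% of its UMIs, and its day 3 log2 ratio was 2.48 when only cells of up to 3000 genes were kept. Cells with 4 OPC markers held more of the myelin list (17569, 6758, 14174 and 14732 CPM) than cells with all 6 (1390.3, 2607, 1547 and 1999 CPM), and cells with 3 or 5 markers held 2106 to 6070.1 CPM of it. Of the OPCs, 8 of 131 in the sham library, 40 of 293 at day 1, 5 of 42 at day 3 and 8 of 76 at day 7 had 4 markers.

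Gpr17, a receptor of committed OPCs, was at 405, 467, 519 and 374 CPM and had ratios of 1.15 (1.02 to 1.3), 1.28 (1.08 to 1.52) and 0.923 (0.784 to 1.09), with a day 3 ratio of 2.01 (1.66 to 2.43) without mixed droplets. At 2000 UMIs it was present in 61.5% of sham OPCs (52.2 to 70.1), 55.3% at day 1 (48.9 to 61.7), 44.7% at day 3 (28.6 to 61.7) and 63.1% at day 7 (50.2 to 74.7). All 4 intervals overlapped, and the shares were 58.8%, 63.7%, 66.7% and 61.1% without mixed droplets. Unthinned they were 88.5%, 67.6%, 78.6% and 68.4%. Mature oligodendrocytes were positive in at most 0.603% of cells, with median depths of 5531 to 9552 UMIs before thinning.

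OPCs with a Gpr17 UMI were compared with the others of the same library, and whether the libraries differ in this was not tested. Bcas1 was 3.09 times as abundant per cell in the sham library (1.72 to 5.94), 4.81 times at day 1 (3.19 to 7.53), 5.73 times at day 3 (2.95 to 12.2) and 4.6 times at day 7 (2.09 to 12). Fyn was 1.66 times as abundant in the sham library (0.931 to 3.09) and 3.49, 7 and 3.22 times on days 1, 3 and 7. Cspg5, in contrast, had ratios of 0.968 (0.859 to 1.09), 1.07, 1.47 and 1.43. Cells of 1 library are not replicates, and these ratios describe the libraries.

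Cell cycle genes were counted per cell to find OPCs that may be dividing. At 2000 UMIs, 13.9% of sham OPCs (8.33 to 21.4), 16% at day 1 (11.6 to 21.2), 10.5% at day 3 (2.94 to 24.8) and 6.15% at day 7 (1.7 to 15) held at least 3 of 44 S, G2 and M phase genes, with overlapping intervals. Mature oligodendrocytes at the same depth met this in 0.93%, 1.81%, 2.85% and 0.874%. Without mixed droplets the OPC shares were 7.5%, 15.5%, 19% and 11.1%, and unthinned 39.7%, 24.9%, 42.9% and 36.8%, where mature oligodendrocytes reached 33%. With cells of up to 3000 genes the day 3 share was 0%. In the OPCs that met the count Bcas1 was 0.659 times as abundant as in the others in the sham library (0.274 to 1.37) and 0.39 times at day 1 (0.204 to 0.685).

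Summed over the OPCs of a library, mitotic genes were lower at day 7, but their UMIs lay in few cells. Of 10 measured G2 and mitosis genes, Cenpf, Birc5, Cdca8 and Cdc20 were at least 2-fold lower, against 2.77% of all measured genes, and none was above sham, with a median of -0.95. Top2a, a topoisomerase of dividing cells, was at 75, 116, 51.3 and 52.7 CPM, in 8, 23, 2 and 4 cells, and Mki67 at 43.4, 49.7, 16.2 and 41.2 CPM, in 9, 25, 2 and 1 cells. A single OPC thus held all Mki67 UMIs at day 7. Without mixed droplets the 24 genes summed to 1152, 1204, 1518 and 85.3 CPM, a day 7 ratio of 0.0741 (0.0461 to 0.113), with 14 of the 24 at 0. That interval covers the counting of UMIs and not the spread between cells. Counted per cell at 2000 UMIs without mixed droplets, the cycling share was 11.1% at day 7 (3.11 to 26.1) and 7.5% in sham (2.8 to 15.6). A lower share of cycling OPCs at day 7 was thus not shown. At day 1 the median of 11 measured genes was 0.25, and Ube2c alone passed 2-fold, as higher, against 1.90% of all measured genes. At day 3 the median of 10 was -0.58, with Cenpf and Nusap1 lower, against 4.26% of all. Without mixed droplets, however, the day 3 sum lay above sham (ratio 1.32, 1.13 to 1.53).

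Some immediate-early genes, which are transcribed soon after a stimulus, were lower at day 1, while 6 of 15 lay above sham. Fos, Fosb, Jun, Jund, Klf2 and Klf6 of 15 measured genes were at least 2-fold lower, against 2.70% of all, with a median of -0.61, against 0.46 in mature oligodendrocytes and -0.73 in all other cells. Jun was at 3649, 980.2, 2115 and 3849 CPM, a day 1 ratio of 0.269 (0.253 to 0.285). Fos was at 3529, 1439.8, 3084 and 3364 CPM. Both were lowest at day 1 and near the sham level at day 7. At day 3 Ier3, Atf3 and Zfp36 of 15 were at least 2-fold higher, against 3.73% of all measured genes, with a median of 0.05. Without mixed droplets 2 of the list were higher then, against 3.58%. Egr1 alone of 15 was 2-fold higher at day 7, against 3.31% of all measured genes. It stood at 567 against 156 CPM, a ratio of 3.62 (3.01 to 4.38).

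The heat shock genes had medians of -0.14, 0.23 and -0.03. Of 14 measured, only the inducible pair Hspa1a and Hspa1b passed 2-fold at days 1 and 3, as higher, against 1.90% and 3.73% of all measured genes. Their log2 ratios without mixed droplets were 2.67 and 3.89 at day 1 and 3.84 and 4.66 at day 3. The 2 genes are near-identical copies between which reads may be split. At day 7 Hspa1a and Hspa5 of 13 were higher, against 3.31% of all measured genes, and Dnajb1 lower, against 2.77%. Hspa1a was at 37, 238, 424 and 125 CPM, with ratios of 6.42 (4.64 to 9.1), 11.4 (8.07 to 16.6) and 3.38 (2.28 to 5.07). Hspa1b was at 6.33, 229, 267 and 34.6 CPM, in 4, 44, 7 and 6 cells. Hspa1a was at 35.2, 344, 243 and 64.4 CPM in mature oligodendrocytes and at 207, 499, 789.9 and 281 CPM in all other cells, and Hspa1b at 56.7, 364, 509.6 and 71.5 CPM in the latter, above the OPCs in every library.

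Among secreted factors, Vegfa, the vascular endothelial growth factor, was lower at day 1. It was at 138 CPM in sham OPCs, above the 16 CPM of all other cells, and at 37.1, 89.1 and 88.9 CPM after tMCAO. The day 1 ratio was 0.268 (0.194 to 0.367), and 0.207 (0.13 to 0.318) without mixed droplets. Csf1, a growth factor for microglia, was at 18.1, 23.8, 59.4 and 21.4 CPM, a day 3 ratio of 3.29 (1.71 to 6.35). Of the receptors, Igf1r, for insulin-like growth factor 1, was 2-fold higher at day 7, at 226 against 80.4 CPM, a ratio of 2.81 (2.13 to 3.71). All other cells had 631 against 303 CPM of Igf1r.

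Nuclear genes of the respiratory chain were slightly higher at day 1: all 22 lay above sham, none by 2-fold, with a median log2 ratio of 0.60, against 0.49 in mature oligodendrocytes, 0.70 in all other cells and 0.34 in OPCs without mixed droplets. Ion channel, transmitter receptor and synaptic adhesion genes were lower at day 3, where none of 18 was above sham, 3 were at least 2-fold lower (4.26% of all measured genes), Kcnk1 and Lrrtm3 among them, and the median was -0.55 (-0.64 without mixed droplets). The median of the antigen presentation genes was -0.74 at day 1 and 0.04 without mixed droplets, 0.34 and -0.06 at day 3, and -0.45 and -0.49 at day 7. Genes of the matrix, cholesterol synthesis, hypoxia, the integrated stress response and p53 targets had medians between -0.45 and 0.45 on all 3 days. At most 2 of the 5 to 14 measured genes of each list passed 2-fold in a direction on any day. Of all measured genes, 1.90% to 4.26% did so, by day and direction.

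**Figure D5:**
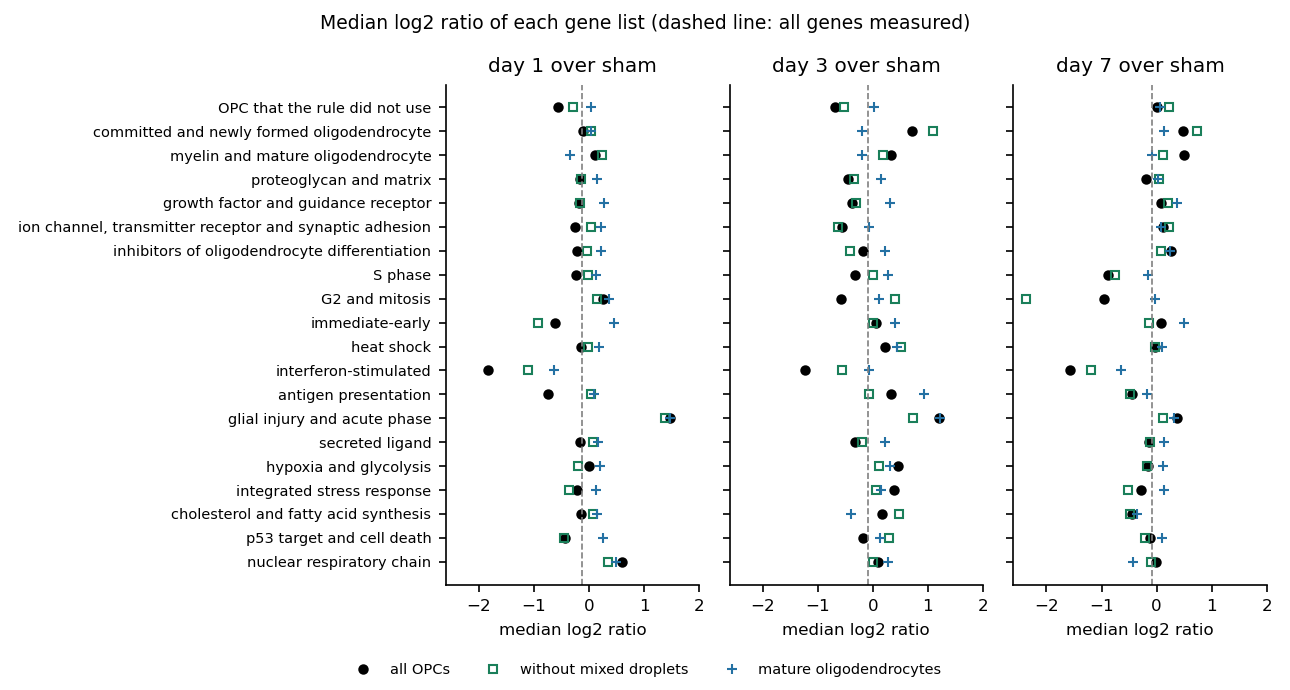
Median log2 ratio to sham (horizontal axes) of the measured genes of 20 lists at days 1, 3 and 7, for all OPCs (circles), OPCs without mixed droplets (squares) and mature oligodendrocytes (plus signs). The dashed line is the median of all measured genes. The interferon list lies furthest left at days 1 to 7 among all OPCs and the injury list furthest right at days 1 and 3.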

How the data were processed

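The authors deposited 1 matrix of raw UMI counts per gene and cell for each of the 4 libraries. The file header names Cell Ranger 4.0.0, while the submitters' processing notes name Cell Ranger 3.0.1, Seurat 4.1.2 and a human build. The feature identifiers are mouse, and 99.6% of 31053 matched the GENCODE annotation of GRCm38, from which positions were taken. No count column was left unmatched. The members, gene lists and tests were chosen with earlier results of these data known.

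A cell was kept when it had 200 to 6000 detected genes and no more than 10% of its UMIs in mitochondrial genes. The study's own upper limit of 3000 genes was run as an alternative. Mature oligodendrocytes held a UMI of at least 3 of Mog, Mag, Ermn and Opalin and of at most 1 OPC marker other than Olig1. Doublets were marked with Scrublet (scanpy 1.11.5), which met 11, 42, 1 and 9 OPCs in the order sham, day 1, day 3 and day 7. They were kept in the main values. Counts were summed per library and scaled to CPM. Shares of cells with given genes were taken after thinning each cell to 2000 UMIs, which left out 9, 49, 4 and 11 OPCs.

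Named genes were the 8 with the largest difference per day and direction, where, in the library with the higher OPC level, all other cells had at most 2 times that level, the rule genes, the 12 genes whose smallest ratio of OPCs to other cells over the 4 libraries was largest, and up to 4 genes of each of 20 lists with the largest log2 ratio in size. A further 17 genes, among them Mt1, Mt2, Mt3, Fos, Mki67 and Csf1, were singled out after their values were seen. A few genes are not reported here. There were also 10 marker lists of other cell types. Analyses used Python 3.11.15 with numpy 2.4.6, pandas 2.3.3, scipy 1.17.1 and matplotlib 3.10.9, and were tested on simulated data. In all, 39 alternatives were planned and 3 were added after seeing the data.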

Additional observations from a re-analysis of the deposited data

Results flagged for a closer look

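C1qa, a complement gene of microglia, had a log2 ratio of -1.13 at day 3 in OPCs and of 1.71 in mature oligodendrocytes, so that the same comparison pointed in opposite directions in the 2 cell types. The difference was not tested. In sham OPCs C1qa stood at 65.1 CPM, and 1 cell held 72.2% of its UMIs. The OPC value was 0.80 without mixed droplets, 2.01 with cells of up to 3000 genes and 0.09 without the OPC with most C1qa UMIs.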

How the results depend on the processing

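No paired analysis was possible because each group has 1 library, and no library could be left out. Of the log2 ratios of named genes under the alternatives, 1797 kept direction and moved by less than their interval, 258 moved further and 64 reversed. Where a value moved, the cause was not tested.

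The OPC share was 2.36%, 2.66%, 1.17% and 1.42% (sham, days 1, 3 and 7) with at least 2 markers, 1.76%, 2.27%, 0.921% and 0.761% with no exclusion genes, and 0.863%, 1.27%, 0.221% and 0.284% without mixed droplets. It was 0.489%, 0.192% and 0.292% (sham, days 3 and 7) with up to 3000 genes, 1.68% in sham with a mitochondrial limit of 5%, and 1.39% and 0.232% (days 1 and 3) when cells were thinned to 1000 UMIs first.

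Counts of genes past 2-fold at days 1, 3 and 7 were 32, 92 and 32 higher and 37, 28 and 29 lower with 50 CPM added, and 28, 75 and 26 higher and 34, 28 and 26 lower with an expression limit of 200 CPM. With a limit of 20 CPM they were 146 and 244 higher (days 1 and 7) and 354 and 218 lower (days 3 and 7). With 1 CPM added 295 and 207 were lower (days 3 and 7). With up to 3000 genes 241 were higher and 298 lower at day 1, and 246 higher at day 7, and the median of all genes shifted by 0.16, 0.10 and 0.12. Centring gave 76 lower at day 1, equal weight per cell 280 higher at day 7, and leaving out mixed droplets 302 lower at day 3.

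The cycling share was 39.7%, 24.9%, 42.9% and 36.8% without thinning, 6.98% and 9.29% (sham, day 1) at 1000 UMIs, 23.8%, 22.5% and 29.2% (sham, days 1 and 7) with 1 gene fewer required, 11.1% and 0% (days 1 and 3) with up to 3000 genes and 7.5% in sham without mixed droplets. The Gpr17 share was 88.5%, 67.6% and 78.6% (sham, days 1 and 3) without thinning, 35.7%, 37.9% and 33.8% (sham, days 1 and 7) at 1000 UMIs, 64.3% and 46.7% (days 3 and 7) with up to 3000 genes, 63.7% and 66.7% (days 1 and 3) without mixed droplets, 50.5% in sham without Scrublet doublets and 49.2% at day 7 with another random seed. It rests on 1 gene, so requiring 1 gene fewer gave no value.

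Reversed log2 ratios without mixed droplets were at day 1 Kcnj13 -0.23, Isg15 0.81, Folr1 -0.39, Ccl7 0.13, Psmb9 0.21, Psmb8 0.09, and at day 3 the G2 and mitosis list median 0.53, Ptgs2 -0.22, Ackr1 -0.17, Cebpb -0.14, C1qa 0.80, Isg15 0.03, Ppp1r15a -0.53, Olfr655 1.12, Mt3 -0.57, Aldoc -0.59, Hist1h2ap 0.10, Prlr -0.22, H2-K1 -0.24, and at day 7 Igfbp2 -0.61, Kcnj13 -0.41, C1qa 0.09, Pf4 0.47, Folr1 -0.74, Trf -0.21, Sox9 -0.22, Prlr -0.22. With up to 3000 genes they were at day 1 Folr1 -0.31, Olfr655 0.48, Calb2 0.07, Ccl7 0.61, Hist1h2ap 0.10, Psmb9 0.65, and at day 3 Ptgs2 -0.79, Cebpb -1.11, Klf4 0.54, Slc2a1 -0.58, C1qa 2.01, Ppp1r15a -1.29, Olfr655 2.44, Irf7 0.92, Calb2 0.19, Aldoc -0.58, H2-K1 -0.91, Ier3 -0.09, Mbp 2.48, and at day 7 Folr1 -0.79, Dnajb1 0.85, Car12 -0.54, Sox9 -0.79, Psmb9 0.82. With at least 4 markers they were at day 1 Olfr655 0.29, and at day 3 the G2 and mitosis list median 0.12, Cxcl1 -0.58, Ppp1r15a -0.20, Olfr655 0.91, Mt3 -0.26, Prlr -0.26, H2-K1 -0.05. With equal weight per cell Olfr655 was 0.97 at day 3. Without the OPC with most UMIs of the gene they were at day 1 Pf4 0.09, Olfr655 0.01, Ccl7 0.49, and at day 3 C1qa 0.09, Prlr -1.43. That last alternative, the scaling without Ttr and the thinned shares without mixed droplets were chosen after seeing the data.

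With 1 library per group, differences between mice, dissections and captures cannot be told apart from those between groups. Day 3 holds 42 OPCs.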
